A study of Rattus norvegicus with 12 samples.

Results

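The 10 genes described here encode intermediate filament proteins: the neurofilament subunits Nefm and Nefl, the keratins Krt7, Krt8, Krt18 and Krt19, vimentin (Vim), desmin (Des), nestin (Nes) and the nuclear lamin gene Lmna. All probe sets whose array annotation names one of these genes alone were taken, which gave 12 probe sets of 31042 that are not controls. Nefm and Krt7 were chosen by their measured decrease in diabetic rats, so every value of theirs is a description and carries no test. The other 8 genes were chosen as related filaments with earlier results of these data known. A limit on dim signals (geometric mean 70.9, which leaves out the dimmest 40% of probe sets) was passed by 10 of the 12 probe sets, covering 9 genes. The 2 probe sets of Nefl lay below it and were not tested.

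The study measured transcripts in renal cortex of male rat littermates, with 3 arrays in each of 4 groups, to compare diabetes that began before and after puberty. The diabetic rats had received 65 mg/kg of intravenous streptozocin, a toxin of insulin-producing beta cells, at 4 weeks of age (the 10-week group) or at 14 weeks (the 20-week group). Insulin palmitate pellets followed 3 days later, and the cortex was taken after 6 weeks, with blood glucose given as 350 to 450 mg/dl in the sample labels. Nondiabetic rats of the same ages received the injection vehicle and palmitate vehicle pellets, and all rats ate and drank freely. Streptozocin, insulin pellets and diabetes went together, so their effects cannot be told apart. The label of 10-week diabetic replicate 1 names a vehicle pellet. No label names the rat behind an array or says whether tissue was pooled, so p-values measure only how these samples differ among themselves, which may be in part technical.

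Intermediate filaments are ropes of coiled-coil proteins that give a cell mechanical strength, and each cell type builds them from its own subunits. Simple epithelia pair a type II keratin (Krt7 or Krt8) with a type I keratin (Krt18 or Krt19), mesenchymal cells, endothelium and podocytes use vimentin, and muscle uses desmin. In the kidney, keratins belong mainly to the distal and collecting epithelium, and injured tubules are known to raise Krt8, Krt18, Krt19 and vimentin. Neurofilaments are the filaments of axons, where the light subunit Nefl forms the core and the medium subunit Nefm carries long side arms.

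Krt8 and Krt18 are partners in simple epithelia, and their genes lie on rat chromosome 7 with the start of 1 other annotated gene between theirs. Their promoters and that of vimentin are shown because injured tubules are known to raise these filament genes, none of which was called at 20 weeks. No promoter sequence was at hand for Nefm, Nefl, Krt7 or Krt19. Each line gives the 150 bases before the annotated start, 5′ to 3′ on the gene's strand, from RefSeq (GRCr8). Capitals mark TATAAA (the TATA box) and GGGCGG (the core of the GC box), searched on both strands.
Krt8: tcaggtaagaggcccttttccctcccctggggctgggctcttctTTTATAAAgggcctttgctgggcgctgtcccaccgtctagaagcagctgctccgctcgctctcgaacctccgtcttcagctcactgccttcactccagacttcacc
Krt18: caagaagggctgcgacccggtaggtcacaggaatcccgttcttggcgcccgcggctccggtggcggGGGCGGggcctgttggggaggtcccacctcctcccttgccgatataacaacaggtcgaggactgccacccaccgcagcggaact
Vim: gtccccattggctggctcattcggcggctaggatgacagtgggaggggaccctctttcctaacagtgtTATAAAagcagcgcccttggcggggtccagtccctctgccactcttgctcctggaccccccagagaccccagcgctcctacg
The Krt8 stretch is chr7:135010340-135010489 on the minus strand, the Krt18 stretch chr7:135036018-135036167 on the plus strand and the Vim stretch chr17:81577111-81577260 on the plus strand. Krt8 held TATAAA at -104 and, overlapping it on the other strand, at -106, and no GGGCGG. Krt18 held GGGCGG at -84 and no TATAAA, so the partners differ in these letters. Vim held TATAAA at -82. Of 33469 promoters, 8.0% held TATAAA and 26.0% held GGGCGG in the same 150 bases. The letters TGANTCA, the site bound by AP-1, were found in none of the 3 promoters over 250 bases and in 6.34% of all. A match is a run of letters and was not tested for binding.

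Each array had been scaled by the authors to a mean of 500.2 after trimming 2% at each end, so each difference is read against the bulk of the transcripts. Proximal tubule markers were bright on every array, with a summed signal between 90770 and 108300 over 7 genes. The ratio of 3′ to 5′ signal of Gapdh, a control that climbs when RNA is degraded, lay between 1.41 and 1.5 at 10 weeks and between 1.42 and 2.09 at 20 weeks, with the highest value in 20-week nondiabetic replicate 1. The arrays called doubted below are this one and 10-week diabetic replicate 1. In whole tissue, fewer cells of a type and less RNA per cell cannot be told apart.

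Nefm had lower signals in diabetic than in nondiabetic rats at both ages. At 10 weeks its signal was 555.0, 470.6 and 544.5 in nondiabetic rats and 261.2, 127.7 and 172.9 in diabetic rats. At 20 weeks it was 552.1, 791.0 and 763.0 in nondiabetic rats and 303.0, 479.1 and 295.7 in diabetic rats. All 3 diabetic arrays lay below all 3 nondiabetic arrays at each age, and diabetic replicate 2 was the lowest diabetic array at 10 weeks and the highest at 20 weeks. The mean went from 523 ± 46.0 (SD, n = 3) to 187 ± 67.9 at 10 weeks, a log2 difference of -1.54 ± 0.26 (SE), or 2.91-fold. At 20 weeks it went from 702 ± 131 to 359 ± 104, a log2 difference of -0.99 ± 0.26, or 1.98-fold. In order of their means the groups ran from nondiabetic 20 weeks through nondiabetic 10 weeks and diabetic 20 weeks to diabetic 10 weeks, and only the last neighbours had arrays that did not overlap. Without the doubted arrays the differences were -1.81 and -1.15.

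The other neuronal filaments lay mostly below the limit. The first Nefl probe set read between 2.3 and 24.5 on the 12 arrays and lay above the limit of 70.9 on 0 of them. The second read between 1.4 and 123.0 and lay above it on 2, one array of each 20-week group. At 20 weeks this probe set gave 30.5, 28.2 and 79.4 in nondiabetic and 21.7, 36.6 and 123.0 in diabetic rats, which overlap. At 10 weeks it gave 9.0, 29.6 and 1.4 against 43.6, 45.5 and 19.7. These overlap too, with a higher diabetic mean, and all lie below the limit. The heavy neurofilament Nefh reached 63.0, alpha-internexin (Ina) 69.0 and peripherin (Prph), a filament of peripheral nerve, 114.8. These 3 were singled out after their values were seen. Nefm itself lay above the limit on 12 of 12 arrays. Nefm and Nefl are neighbours on rat chromosome 15, with the start of 1 other annotated gene between theirs.

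Markers of nerve and Schwann cells were dim as well. Of 8 such genes on the array 2 were tested. In the 5 comparisons, where at most 4.47% of all probe sets were called, neither passed. Their signal summed over the 8 genes was 265.1 to 339.5 in nondiabetic and 261.7 to 331.4 in diabetic rats at 10 weeks, and 300.9 to 585.8 against 388.1 to 466.3 at 20 weeks. The groups overlap in this sum at both ages. No marker was listed at 0. The list lacks a signal well above the limit, so which cells held the Nefm transcript was not tested.

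**Figure D1:**
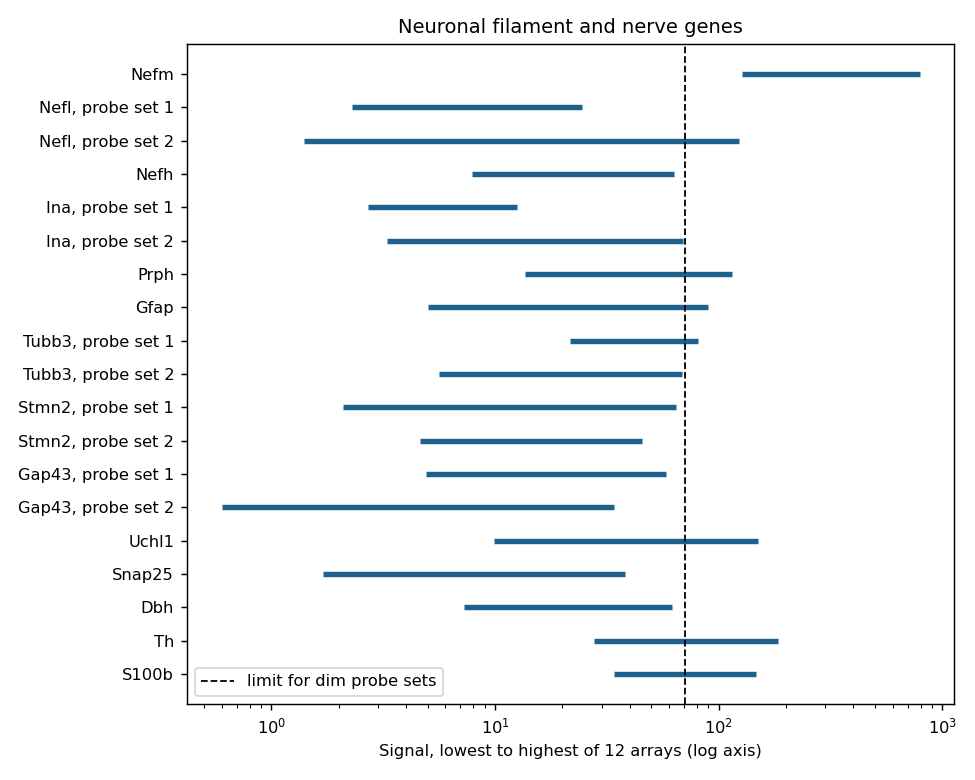
Lowest to highest signal over the 12 arrays (log axis) for Nefm, both Nefl probe sets, other neuronal or glial filament genes and the nerve and Schwann markers; the dashed line is the limit of 70.9. The bar of Nefm, from 127.7 to 791.0, lies wholly above the line, and every other bar begins below it.

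Krt7 showed the same arrangement with a tighter spread. Its protein is the type II keratin of ducts and of the collecting epithelium. At 10 weeks the signal was 5021.9, 5099.6 and 4642.5 in nondiabetic rats and 2805.7, 3639.1 and 3183.9 in diabetic rats. At 20 weeks it was 4279.8, 4152.9 and 4663.4 in nondiabetic rats and 2146.2, 2578.4 and 2481.7 in diabetic rats. Every diabetic array lay below every nondiabetic array, across ages as well as within them. Krt7 was chosen for its decrease, and separation across ages was not counted over all probe sets. The means were 4921 ± 245 and 3210 ± 417 at 10 weeks (log2 difference -0.62 ± 0.10, 1.54-fold) and 4365 ± 266 and 2402 ± 227 at 20 weeks (-0.86 ± 0.10, 1.82-fold). Nondiabetic rats of the 2 ages overlapped, and diabetic rats of 20 weeks all lay below those of 10 weeks. Without the doubted arrays the differences were -0.53 and -0.88.

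For scale, limma called 0.306% of the 18625 probe sets tested at 10 weeks and 2.84% at 20 weeks at an adjusted p under 0.05. Groups did not overlap, with diabetic rats lower, for 9.52% of probe sets at 10 weeks and 10.9% at 20 weeks. Since both genes were chosen on these arrays, nothing follows from their place against those shares. Subtracting the 20-week from the 10-week difference gave -0.56 ± 0.36 for Nefm and 0.24 ± 0.15 for Krt7. The mean difference over both ages was -1.26 ± 0.18 for Nefm and -0.74 ± 0.07 for Krt7, and the difference between 20 and 10 weeks in nondiabetic rats was 0.41 ± 0.26 and -0.17 ± 0.10.

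Markers of the principal cells of the collecting duct, where Krt7 belongs, gave summed signals that overlapped. The sum over 10 genes was 14090 to 16830 in nondiabetic and 14090 to 18830 in diabetic rats at 10 weeks, and 13250 to 14360 against 13300 to 14710 at 20 weeks. Single markers went both ways. The water channel Aqp2 was higher in diabetic rats over both ages (0.55 ± 0.09, adjusted p = 0.00391), and Hsd11b2, which protects the mineralocorticoid receptor from glucocorticoids, was lower (-0.62 ± 0.13, adjusted p = 0.0192). In all, 3 of 9 tested markers rose and 1 fell over both ages, where 4.47% of all probe sets were called. Intercalated cells, the other cell type of the collecting duct, had sums over 4 genes of 3264 to 3883 in nondiabetic and 2392 to 3168 in diabetic rats at 10 weeks, lower without overlap, and of 3076 to 3110 against 3021 to 3475 at 20 weeks, which overlap. Of these markers 2 of 4 fell over both ages, the anion exchanger Slc26a4 (-0.51 ± 0.10, adjusted p = 0.0110) and the proton pump subunit Atp6v1b1 (-0.37 ± 0.09, adjusted p = 0.0431). The other 2 stood higher and were not called, Slc4a1 (0.54 ± 0.15, adjusted p = 0.064) and Foxi1 (0.32 ± 0.11, adjusted p = 0.153). The median of the 4 was -0.03. Sums of 3 distal convoluted tubule genes were 10850 to 11550 against 12610 to 14720 at 20 weeks, higher in diabetes without overlap. At 10 weeks they were 13980 to 21340 against 14730 to 19710, which overlap. Calb1, with a geometric mean signal of 11620 beside 2531 for Slc12a3, made up most of these sums. The 2 tested genes went opposite ways at 20 weeks, Calb1 higher (0.501 ± 0.149) and Slc12a3 lower (-0.533 ± 0.185). Of these 2 genes 0 were called, where 2.84% of all probe sets were called at 20 weeks. Urothelial markers, which would accompany a strip of renal pelvis, had 0 of 5 genes above the limit for testing, with sums of 90.03 to 294.9 over all arrays. At 10 weeks these sums were 150.2 to 243.9 in nondiabetic and 90.03 to 177 in diabetic rats, which overlap, and at 20 weeks 215.5 to 294.9 and 153.4 to 189.1, which do not. The part of these cell types in the Krt7 and other keratin values was not tested.

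**Figure D2:**
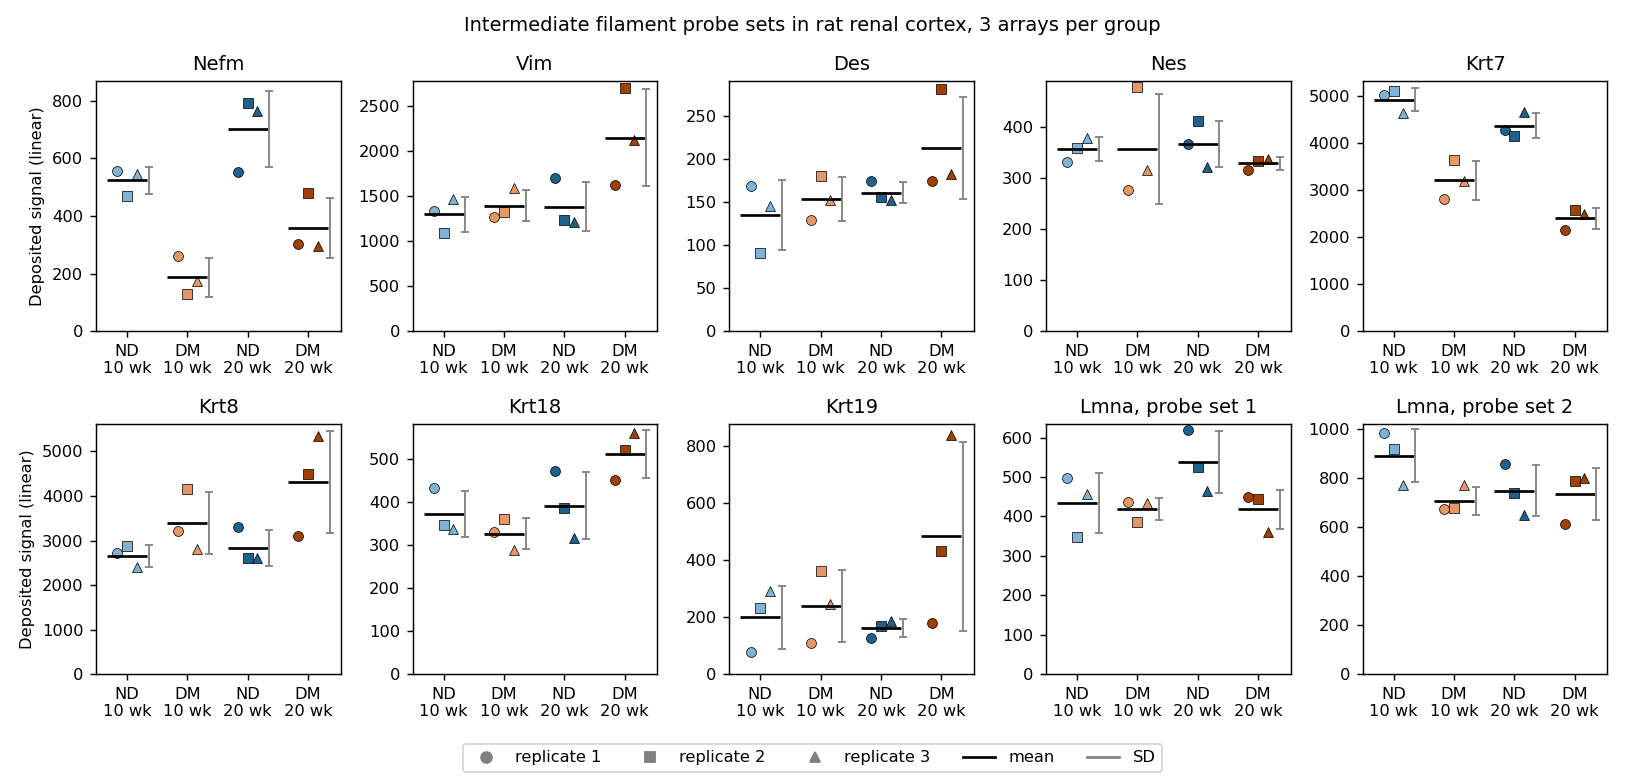
Deposited signal (linear axis from 0) of the 10 tested filament probe sets on every array, by group; symbols mark the replicate number, black lines the mean and grey bars the SD of 3 arrays. Nefm and Krt7, chosen for their decrease, are lower in diabetic (DM) than nondiabetic (ND) rats at both ages. Krt8, Krt18, Krt19, Vim and Des have 2 of 3 diabetic 20-week arrays above all nondiabetic ones. Over all probe sets this arrangement was not counted.

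None of the other 8 genes passed the test. They had 8 tested probe sets of 7 genes, and limma called 0 at 10 weeks, 0 at 20 weeks and 0 over both ages, beside 0.306%, 2.84% and 4.47% of all probe sets. At an unadjusted p under 0.05 there were 1, 5 and 2 of 8, beside 10.9%, 16.8% and 17.9% of all probe sets. The counts at 10 weeks and over both ages are near those shares. Their median log2 difference was 0.04 at 10 weeks and 0.38 at 20 weeks, beside -0.02 and -0.0043 over all probe sets tested. At 20 weeks 5 of the 8 probe sets were higher in diabetic rats and 3 lower.

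Krt8, the type II keratin of simple epithelia, was the keratin nearest to a call. Its signal at 20 weeks was 3306.8, 2608.3 and 2609.8 in nondiabetic rats and 3099.7, 4498.1 and 5354.1 in diabetic rats. Diabetic replicates 2 and 3 lay above all nondiabetic arrays and replicate 1 among them. The log2 difference was 0.58 ± 0.19 (1.49-fold, 95% interval 0.17 to 0.98, adjusted p = 0.133). At 10 weeks the signal was 2715.9, 2878.3 and 2396.9 in nondiabetic and 3219.9, 4147.4 and 2805.1 in diabetic rats. Of the diabetic arrays, 2 lay above all nondiabetic ones, and the difference was 0.33 ± 0.19 (adjusted p = 0.557). Over both ages it was 0.45 ± 0.13 (adjusted p = 0.0774).

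Krt18, the type I partner of Krt8, had a signal of 472.8, 385.3 and 317.8 in nondiabetic and 450.9, 521.0 and 561.2 in diabetic rats at 20 weeks. Here too diabetic replicates 2 and 3 lay above the nondiabetic arrays. The log2 difference was 0.40 ± 0.17 (95% interval 0.03 to 0.76, adjusted p = 0.259). At 10 weeks the signal was 433.5, 347.0 and 336.4 against 330.2, 360.6 and 288.9, a difference of -0.19 ± 0.17 (adjusted p = 0.735). The difference at 10 weeks minus that at 20 weeks was -0.58 ± 0.24, with an unadjusted p of 0.0307 and an adjusted p of 0.577. The ages were therefore not shown to differ.

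Krt19, a type I keratin of ducts and of tubular cells after injury, had the largest standard error of the tested members. At 20 weeks it read 126.5, 169.2 and 187.2 in nondiabetic and 181.0, 432.7 and 837.4 in diabetic rats. The diabetic arrays spanned more than the nondiabetic arrays did, and replicate 1 fell within the nondiabetic range. The log2 difference was 1.34 ± 0.59 (2.54-fold, 95% interval 0.07 to 2.62, adjusted p = 0.271). At 10 weeks the signals were 77.7, 233.4 and 290.3 against 109.9, 361.1 and 246.2, with a difference of 0.30 ± 0.59 (adjusted p = 0.899). The lowest signals lie near the limit, so the size of these differences is uncertain.

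Vimentin, the filament of mesenchymal cells, endothelium and podocytes, had the smallest p-value of the other 8 genes at 20 weeks. Its signal there was 1694.9, 1237.8 and 1206.7 in nondiabetic and 1617.9, 2693.7 and 2125.0 in diabetic rats. Diabetic replicate 1 lay among the nondiabetic arrays and the other 2 above them. The log2 difference was 0.62 ± 0.19 (1.54-fold, 95% interval 0.22 to 1.03, adjusted p = 0.103). At 10 weeks the signal was 1330.7, 1089.6 and 1463.8 against 1265.4, 1321.8 and 1592.3, a difference of 0.11 ± 0.19 (adjusted p = 0.879). The difference at 10 weeks minus that at 20 weeks was -0.51 ± 0.26 (adjusted p = 0.648).

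**Figure D3:**
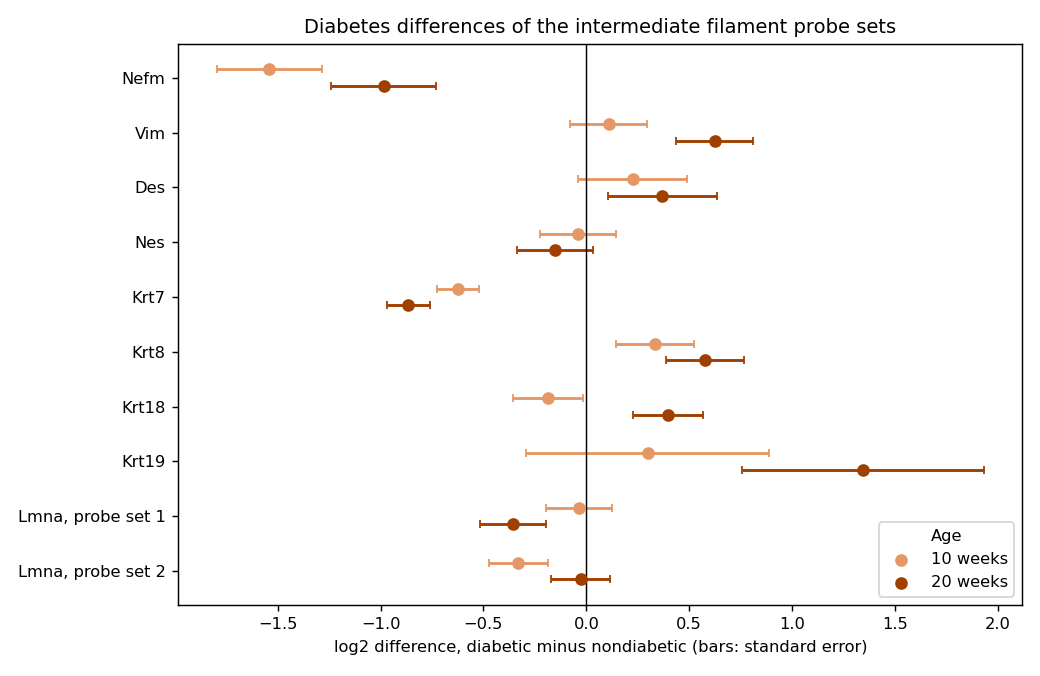
Log2 difference, diabetic minus nondiabetic, of the 10 tested filament probe sets at 10 and 20 weeks; points are the model's estimates and bars its standard error. Nefm and Krt7 lie left of 0 at both ages, and Krt8, Krt18, Krt19 and Vim lie right of 0 at 20 weeks, where none of these 4 passed the test.

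Desmin, the filament of smooth muscle and mesangial cells, read 175.3, 156.3 and 152.5 in nondiabetic and 175.0, 281.7 and 182.6 in diabetic rats at 20 weeks. As in Krt8, Krt18, Krt19 and Vim, diabetic replicates 2 and 3 lay above all nondiabetic arrays and replicate 1 among them. How many of all probe sets have this arrangement was not counted, so nothing follows from it. The log2 difference of Des was 0.37 ± 0.26 (adjusted p = 0.529). Nestin, which podocytes express, read 366.2, 412.3 and 320.8 against 314.7, 333.9 and 337.3, a difference of -0.15 ± 0.18 (adjusted p = 0.738). At 10 weeks the differences were 0.23 ± 0.26 for Des and -0.04 ± 0.18 for Nes, and the groups overlapped for both genes at both ages.

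Lmna, which encodes the A-type lamins beneath the nuclear envelope, had 2 probe sets that did not go together. The first read 620.1, 526.6 and 464.6 in nondiabetic and 450.5, 443.3 and 360.9 in diabetic rats at 20 weeks. It was the 1 probe set of the other 8 genes whose groups did not overlap in a comparison, and its difference was -0.36 ± 0.16 (adjusted p = 0.282). At 20 weeks 10.9% of all probe sets were lower without overlap, so 1 of 8 is near the background. The second gave 857.7, 739.4 and 650.6 against 614.3, 789.4 and 802.8, which overlap, with a difference of -0.03 ± 0.14. At 10 weeks it was the second that stood lower, at -0.33 ± 0.14 (adjusted p = 0.424), and the first gave -0.04 ± 0.16 (0.07 with each array centred on its median). Among the other 8 genes no probe set had all diabetic arrays higher, which 7.47% of all probe sets had at 10 weeks and 10.1% at 20 weeks.

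Diabetic replicate 1 of 20 weeks was the lowest of its group for 7 of the 8 tested probe sets of these genes. Over all probe sets tested it was the lowest for 34.2%. The same array was the lowest for 19 of 24 genes of tubular injury outside the filaments. Without it, Krt8 and Vim passed at 20 weeks (0.80, adjusted p = 0.0352, and 0.81, adjusted p = 0.0472), 2 of 8 probe sets beside 1.68% of all. Over both ages, Krt8 then passed as well (0.57, adjusted p = 0.0170). Leaving out the lowest diabetic array of a probe set raises its difference by construction, so these calls are a description. At 20 weeks this was the 1 alternative of 25 that gave any call among the 8 probe sets. The Gapdh 3′/5′ ratio was 1.6 on this array and 1.68 and 1.75 on the other diabetic 20-week arrays. The 3′/5′ ratio of the beta-actin control differed more, at 7.46 on this array and 11.4 and 10.0 on the other diabetic arrays. In nondiabetic rats of 20 weeks it was 11.2, 6.87 and 8.27. Replicate 1, the highest, was also the highest nondiabetic array in Krt8, Krt18, Vim, Havcr1 and Spp1. Krt19 went the other way, with its lowest nondiabetic signal of 20 weeks, 126.5, in replicate 1. Among the diabetic arrays the ratio was highest in replicate 2, as were Vim and Spp1. Krt8, Krt18, Krt19 and Havcr1 were highest in diabetic replicate 3. The part of the actin ratio in these values was not tested. With the Gapdh ratio as a covariate, the 20-week differences were 0.56 for Krt8 (adjusted p = 0.0983) and 0.61 for Vim (adjusted p = 0.0865).

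Genes of tubular injury outside the filaments, a list compiled with earlier results known, rose in part at 20 weeks. Of 24 tested genes 9 were called higher and 0 lower, with a median of 0.61, where 2.84% of all probe sets were called, 228 higher and 301 lower. The genes named here and below are among those that rose, while the differences of the 24 ran from -0.388 to 2.93. In nondiabetic rats the differences between 20 and 10 weeks ran from -0.208 to 3.16, with a median of 0.211 and 0 called. At 10 weeks limma called 0 of 24 for diabetes, beside 0.306% of all probe sets, with a median of 0.10. For the difference of the diabetes effects between ages it also called 0 of 24, so the ages were not shown to differ. The 20-week count was 9 without the doubted arrays and 9 without diabetic replicate 1. It was 4 without nondiabetic replicate 2, 5 without nondiabetic replicate 3, 4 without diabetic replicate 2 and 3 without diabetic replicate 3. The fibrinogen chain Fga rose by 2.46 ± 0.30 on the log2 scale (adjusted p = 0.00153), the transcription factor Myc by 1.42 ± 0.24 (adjusted p = 0.00945) and the calcium-binding proteins S100a10 and S100a11 by 0.86 ± 0.15 and 0.61 ± 0.11.

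Over both ages 10 of the 24 rose and 0 fell, where 4.47% of all probe sets were called, 398 higher and 435 lower. Among those that rose were osteopontin, Spp1 (1.15 ± 0.18, adjusted p = 0.00384), the kidney injury molecule Havcr1 (1.68 ± 0.29, adjusted p = 0.00564) and S100a6 (0.56 ± 0.10, adjusted p = 0.0057). That count was 8 without the doubted arrays, and 6 without diabetic replicate 2 of 10 weeks or diabetic replicate 3 of 20 weeks. It was 5 without nondiabetic replicate 1 or diabetic replicate 3 of 10 weeks, and 5 without nondiabetic replicate 2 or 3 or diabetic replicate 2 of 20 weeks. The Havcr1 signals of 10-week nondiabetic rats, 63.6, 49.6 and 85.1, lie around the limit, so the size of its change is uncertain. At 20 weeks Havcr1 read 900.8, 456.7 and 466.5 in nondiabetic and 1001.5, 3096.7 and 3350.6 in diabetic rats. Spp1 read 8209.0, 5089.4 and 6314.6 against 9796.5, 22209.1 and 19624.6. In both genes diabetic replicate 1 was the lowest diabetic array, as in Krt8, Krt18, Krt19 and Vim, and yet it lay above all nondiabetic arrays. Krt7 and Nefm lay lower on all 3 of these diabetic arrays, but they were chosen for that decrease, so this is a description.

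**Figure D4:**
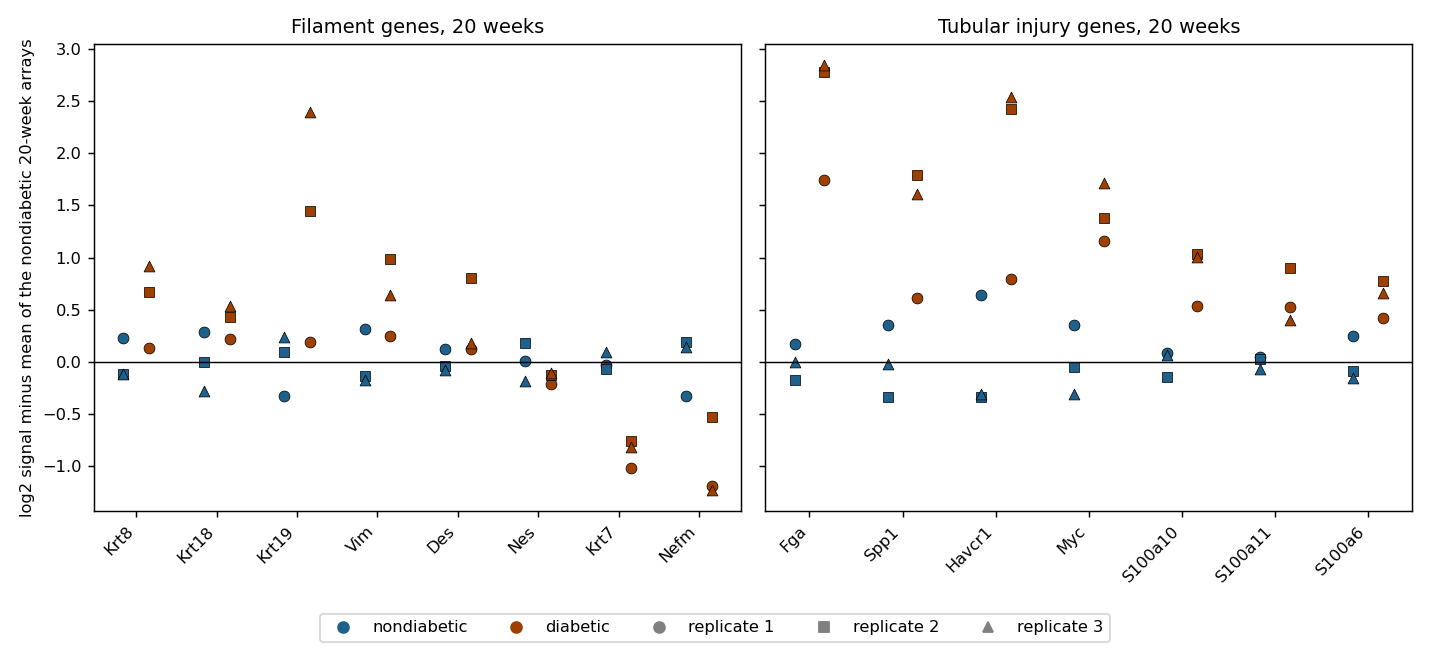
Log2 signal at 20 weeks minus the mean of the nondiabetic 20-week arrays, for 8 filament genes (left) and 7 tubular injury genes (right). The 7 were named above for their rise. Blue points are nondiabetic and brown points diabetic, with symbols for the replicate number. Diabetic replicate 1 (circles) lies closest to the nondiabetic arrays for Krt8, Krt18, Krt19 and Vim and for Fga, Spp1, Havcr1 and Myc. Krt7 and Nefm, chosen for their decrease, lie below 0 on all 3 diabetic arrays.

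Other cell types that carry these filaments gave the following signals. Podocyte markers summed over 7 genes gave 12220 to 12810 in nondiabetic and 10060 to 11750 in diabetic rats at 10 weeks, and 10890 to 11380 against 10200 to 10870 at 20 weeks, lower in diabetes at both ages without overlap. Of these, 3 of 7 fell over both ages, where 4.47% of all probe sets were called. The brightest of the 7, Cd2ap, stood higher and was not called. It gave 0.32 ± 0.09 at 20 weeks (adjusted p = 0.0736) and 0.13 ± 0.06 over both ages (adjusted p = 0.273). Endothelial sums over 6 genes were 9302 to 10560 in nondiabetic and 8178 to 8652 in diabetic rats at 20 weeks, which do not overlap, and 9106 to 10500 against 8576 to 9510 at 10 weeks, which do. Of the 6 endothelial genes 1 fell at 20 weeks and over both ages, the clotting factor Vwf (-1.99 ± 0.49, adjusted p = 0.0482, and -1.78 ± 0.34, adjusted p = 0.0114).

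Fibroblast sums over 6 genes were 7129 to 9124 against 7616 to 12170 at 20 weeks, and smooth muscle and mesangial sums over 9 genes 5252 to 6105 against 5598 to 6277. Both overlap. Of the tested genes limma called 0 of 5 and 0 of 7 at either age. It called 0.306% of all probe sets at 10 weeks and 2.84% at 20 weeks. Leukocyte sums over 6 genes were 6338 to 13580 against 7770 to 13290, which overlap. No marker of these lists was listed at 0. The part of these cells in the values of Vim, Nes and Des was not tested.

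The rest of the filament family was mostly dim. Of 29 other intermediate filament genes on the array 7 were tested. In each comparison 0 of the 7 passed, where at most 4.47% of all probe sets were called. The median log2 difference of the 7 was -0.17 at 10 weeks and -0.10 at 20 weeks, beside -0.02 and -0.0043 over all probe sets tested. The other 22, among them the basal keratins Krt5 and Krt14, did not reach the limit, and the highest single signal among them was 155.5. The tested genes were the B-type lamins Lmnb1 and Lmnb2, synemin (Synm), syncoilin (Sync), Krt10, Krt17 and Krt33b. Sync, which binds desmin filaments, had the largest of their differences at 20 weeks, 0.89 ± 0.40 (adjusted p = 0.283), and was singled out after its value was seen.

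Proteins that anchor or fold filaments did not pass either. Of 19 tested linkers and chaperones limma called 0 in each comparison. It called 0.306% of all probe sets at 10 weeks, 2.84% at 20 weeks and 4.47% over both ages, so 0 of 19 is near those shares. The medians were 0.02 at 10 weeks and 0.05 at 20 weeks, beside -0.02 and -0.0043 over all probe sets tested. Plectin (Plec), which ties filaments to junctions and to the other cytoskeletons, gave 0.29 ± 0.08 over both ages (adjusted p = 0.0633), and desmoplakin (Dsp), the filament anchor of desmosomes, gave 0.36 ± 0.14 at 20 weeks (adjusted p = 0.226). Both were singled out after their values were seen. Of 17 tested partners of the nuclear lamina, limma called 0 in each comparison, again near those shares, with medians of -0.06 and -0.07.

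None of the other 8 genes passed the test for age. Between 10 and 20 weeks in nondiabetic rats limma called 0 of the 8 probe sets, and 0 at an unadjusted p under 0.05, with a median of 0.07. It called 0% of all probe sets, of which 1603 had an unadjusted p under 0.05. All 20-week arrays were higher for 6.36% of all probe sets and lower for 5.7%, and for 0 of the 8. The difference of the diabetes effects between ages likewise called 0 of the 8, with 1 at an unadjusted p under 0.05, and 0% of all probe sets, of which 1480 had an unadjusted p under 0.05.

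The genes whose pattern lay closest to that of Nefm over the 12 arrays were Tesc, Ank2, Pex16, Spata2 and Spns2. Likeness was the root mean square difference of log2 signals after each gene was centred on its own mean, and it was 0.378 for Tesc and 0.459 for Spns2, where a flat gene would have 0.789. The calcium-binding Tesc had log2 differences of -1.07 at 10 weeks and -0.71 at 20 weeks, and the adaptor ankyrin-B, Ank2, had -0.70 and -0.82. The genes closest to Krt7 were Fmo2, Amer2, Dnajc22, Slc7a7 and Manf, at 0.125 for Fmo2 and 0.155 for Manf, where a flat gene would have 0.418. Fmo2, a flavin monooxygenase, had -0.48 and -0.79, and the amino acid transporter Slc7a7 had -0.35 and -0.76. These genes were found on the same arrays and share their libraries, so the likeness is a description.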

How the data were processed

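Signals of 12 one-colour arrays, 1 per sample, were used as the authors deposited them: linear probe-set intensity values made with GCOS, per the submitters' processing notes; which version, with what summary method and with which detection calls is not given in the sources used here. Signals below 1 were set to 1 and log2 was taken. Control probe sets (57 of 31099) and the 40% with the lowest mean were left out, and 18625 were tested. Genes came from the array annotation, updated through the RefSeq gene table: 20832 probe sets named 1 gene, 436 several and 9831 none here.

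A model of 4 group means was fitted to all 12 arrays with limma 3.58.1 in R 4.3.3 (8 residual degrees of freedom, eBayes with an intensity trend). Two-sided p-values were adjusted by Benjamini-Hochberg across the 18625 probe sets of each comparison, with calls made under 0.05. The code was tested on simulated data. The members and lists were chosen with earlier results of these data known. Besides the members, the rule for named genes takes up to 4 called genes per list and comparison, by p, and the 5 nearest patterns to Nefm and Krt7. List genes are represented by their brightest probe set. Alternatives were other scalings, filters, an offset of 16, spread estimates, array weights, fits of 2 groups, the replicate block, the Gapdh ratio as a covariate and arrays left out. Precision depends on how few arrays each group has.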

Additional observations from a re-analysis of the deposited data

How the results depend on the processing

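The log2 differences of Nefm stayed between -1.81 and -1.30 at 10 weeks and between -1.21 and -0.86 at 20 weeks under every alternative run, and those of Krt7 between -0.72 and -0.51 and between -0.92 and -0.79. Median centring moved all differences at 10 weeks by 0.11 and took the difference between ages of Krt7 from 0.24 to 0.38. The number of called probe sets of the other 8 genes was 0 in 25 alternatives at 10 weeks. It ranged from 0 to 2 at 20 weeks and from 0 to 1 over both ages with 1 array left out, the highest without 20-week diabetic replicate 1, and was 1 over both ages with median centring (Krt8, 0.49, adjusted p = 0.0458). Of single values, 40 changed sign, and none of these was called. Whether replicate numbers pair the samples is not known. Correlations of same-numbered deviations ran from -0.15 to 0.15 and were not set against different-numbered ones, so they cannot decide it. With the replicate block 0 of the 8 probe sets were called, and Krt19 at 20 weeks was 1.34 (adjusted p = 0.0554).

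Of all probe sets, 57 were called at 10 weeks, 7 without an intensity trend, 9 with the groups fitted alone, 32 with the replicate block, 10 without the doubted arrays and 5 to 115 with 1 array left out. At 20 weeks these were 529, and 191, 309, 331 (with the doubted arrays out) and 194 to 520. Over both ages 833 were called, 502 without the trend, 490 without the doubted arrays and 525 to 823 with 1 array left out. For the difference between ages 3 were called with the Gapdh covariate and up to 2 with 1 array left out, and for age 1 with median centring and up to 9. The counts of the injury list under each alternative were added after seeing the data: 3 without the trend and 4 with the groups fitted alone at 20 weeks, and 6 without the trend over both ages. With 3 arrays per group and dim signals of Nefl and Krt19, smaller differences could not be resolved.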

Other observations

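Krt19 had its lowest signal of the group in replicate 1 in all 4 groups: 77.7, 109.9, 126.5 and 181.0. This was so for 1 of the 10 tested filament probe sets and for 209, or 1.12%, of all probe sets tested.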
